A study of Homo sapiens with 18 samples.

Results

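The genes described here are 9 regulators and products of the epithelial-mesenchymal transition (EMT), chosen by symbol from the 58815 genes of the counts table. They comprise 6 transcription factors, SNAI1, SNAI2, TWIST1, TWIST2, ZEB1 and ZEB2, and 3 mesenchymal products, CDH2, VIM and FN1. The RNA came from LM2, BrM3 and BoM, sublines of the human triple-negative breast cancer line MDA-MB-231 that metastasize preferentially to lung, brain and bone. A hairpin under DOX control, shCtrl or shWDR5-1, was induced in all groups for 3 days at 1 μg/mL of DOX. Each line and hairpin gave 3 libraries from different passages, for 18 libraries in 6 groups. Both hairpin groups received DOX, and the knockdown rests on a single WDR5 hairpin, so effects of that hairpin on other transcripts cannot be told apart from those of losing WDR5.

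During EMT, epithelial cells give up their junctions and polarity and gain motility and a matrix-producing, spindle-shaped state. The zinc finger proteins of the SNAI and ZEB families bind E-box motifs and repress junction genes such as CDH1, which encodes E-cadherin, while the TWIST proteins are basic helix-loop-helix factors that act in the same programme. CDH2 encodes N-cadherin, VIM the intermediate filament protein vimentin, and FN1 the matrix glycoprotein fibronectin. MDA-MB-231 is widely used as a model of a breast cancer cell already in a mesenchymal state. WDR5 is a scaffold subunit of the KMT2 histone methyltransferase complexes, and whether its depletion alters EMT genes in these lines is a question the design can address.

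Total counts on genes ranged from 17485841 to 119667013 per library. WDR5 fell from 125 ± 11.1 to 23.1 ± 2.24 CPM (SD, n = 3 libraries per group) in LM2. It fell from 86.1 ± 6.95 to 21.9 ± 1.43 CPM in BrM3, and the BoM means were 89.5 ± 1.72 and 19.0 ± 4.39 CPM. CPM, the depth-normalised read count, is the count relative to the library's count on tested genes after TMM scaling. The label of triple-negative, mesenchymal cells was checked against defining genes. CDH1 lay between 0.0386 and 0.601 CPM in the 18 libraries, GRHL2 did not exceed 0.0775 CPM, ESRP1 did not exceed 0.907, and the receptor genes ESR1 and PGR stayed at or under 0.537 and 0.715 CPM. ERBB2 lay between 41.5 and 83.4 CPM and GATA3 between 4.74 and 9.24 CPM. EPCAM, an epithelial adhesion molecule that should be low, was present at 4.39 to 10.1 CPM. Other epithelial genes, named after their values were seen, were abundant in every library, with KRT18 at 263 to 501 CPM, KRT8 at 194 to 447, DSP at 97.4 to 177 and TJP1 at 97 to 163. The mesenchymal markers CD44, AXL, MSN and CAV1 did not fall below 498, 712, 926 and 444 CPM in any library.

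The 9 genes differed in level by several orders of magnitude. Per kilobase of transcript, VIM had a mean of 842 CPM over the 18 libraries (range 694 to 1036) and ranked 57 among the 11120 tested genes with a known transcript length. FN1 followed at 66.1 CPM per kb and ranked 1082, but its range of 12.5 to 155 overlapped those of the next genes in order. SNAI2 had a mean of 20.8 CPM per kb (range 14.8 to 24.6, rank 3282) and ZEB1 18 (range 10.4 to 26.6, rank 3668), and these ranges overlapped. ZEB2, at 3.17 CPM per kb (range 1.47 to 4.85, rank 8595), lay below ZEB1 in every library. SNAI1, with a mean of 0.609 CPM per kb, did not exceed 1.12 and so lay below the lowest value of ZEB2. CDH2 had a mean of only 0.103 CPM per kb, below the lowest SNAI1 value of 0.312 in every library.

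The TWIST genes were close to absent from these libraries. TWIST1 (ENSG00000122691, GRCh38 chromosome 7, 19020991 to 19117636) had 14 counts in all 18 libraries together, 0 in 12 of them and at most 4 in any. TWIST2 (ENSG00000233608, chromosome 2, 238848032 to 238910534) had 3 counts in total and 0 in 16 libraries. For shCtrl and shWDR5, the TWIST1 counts were 2 and 3 in replicate 3 of LM2 and 3 and 4 in replicate 3 of BoM. BrM3 had 1 in shCtrl replicate 3 and 1 in shWDR5 replicate 1. Those of TWIST2 were 2 (shCtrl) and 1 (shWDR5) in replicate 3 of BoM. Why most of these counts fell in libraries numbered 3 was not tested. A count of 0 allows a level of up to 0.0454 to 0.116 CPM for TWIST1 and up to 0.0244 to 0.171 CPM for TWIST2, depending on the depth of the library and for counting error only. No comparison between groups was made for either gene. SNAI1 and CDH2 had 10 to 223 and 2 to 41 counts per library, and they also missed the expression filter, which kept 12081 genes whose highest normalized count was above 145.7. Their changes are therefore taken from a fit with a more permissive filter of 18428 genes. SNAI2, ZEB1, ZEB2, VIM and FN1 were tested among the 12081 genes, and each of these 5 genes exceeded the threshold in all 6 groups. TWIST1 and TWIST2 were in neither set.

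**Figure D1:**
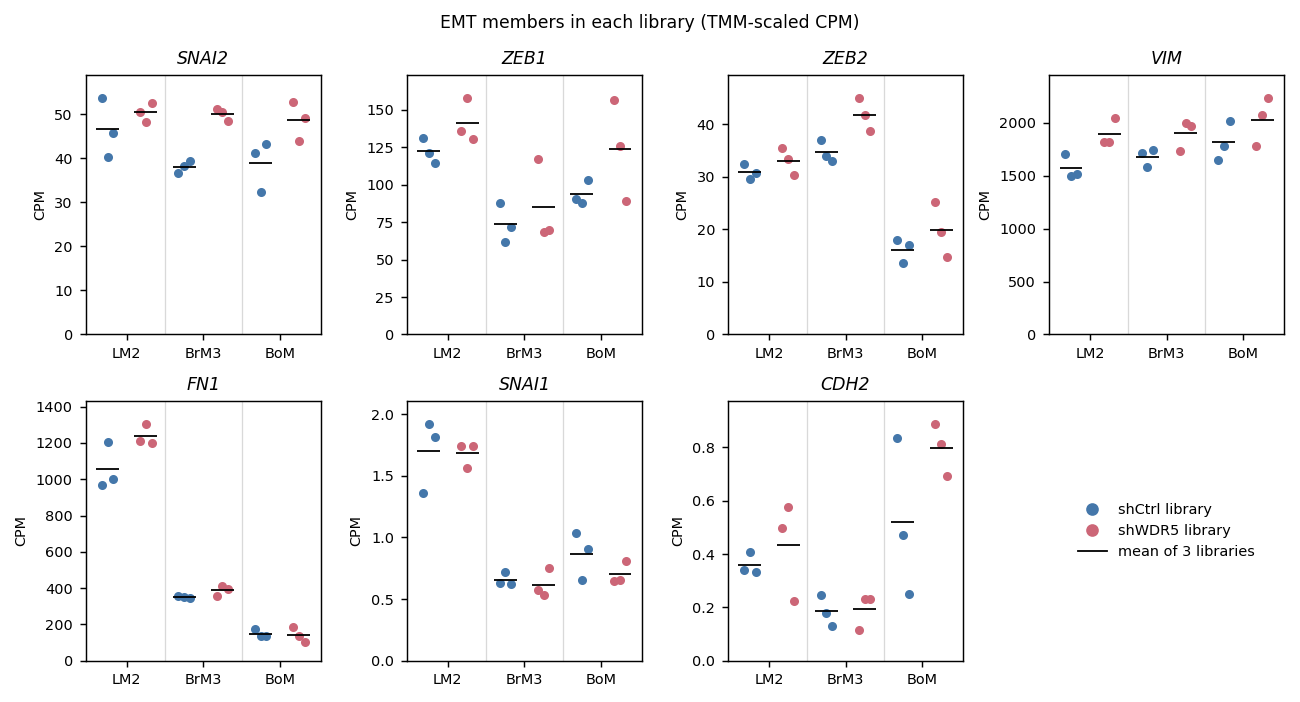
CPM of the 7 genes with enough counts to plot, one panel per gene with its own axis from 0, in shCtrl (blue) and shWDR5 (red) libraries of the 3 lines. Points are single libraries and lines are means of 3. FN1, SNAI1 and ZEB2 separate the lines more than the hairpins, and VIM lies between 1495 and 2231 CPM throughout.

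ZEB1 and ZEB2 are known targets of the miR-200 family, epithelial microRNAs that pair through the seed (bases 2 to 8) with sites in the 3′ UTR. The mature sequences below, from RefSeq on GRCh38.p14, are shown because they define these sites, with the seed in capitals. The first 3 share a seed, and the last 2 share another that differs from it by a single base.
miR-200c-3p: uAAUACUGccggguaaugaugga
miR-200b-3p: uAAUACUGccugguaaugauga
miR-429: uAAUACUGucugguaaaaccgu
miR-200a-3p: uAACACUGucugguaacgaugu
miR-141-3p: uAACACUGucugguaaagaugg

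The matches to these seeds on the mRNA strand are CAGTATT and CAGTGTT, which do not overlap each other, and only the sense strand of the 3′ UTR was searched. Over 18780 protein-coding genes with a MANE transcript, 16.4% had at least 1 CAGTATT in the 3′ UTR, 18.5% had at least 1 CAGTGTT and 28.7% had either. ZEB1 held 6 CAGTATT and 3 CAGTGTT in 2540 bases of 3′ UTR, and ZEB2 held 5 and 4 in 5370 bases. With 9 matches each, both shared rank 4 among all of these UTRs, whose median length was 1088 bases. SNAI2 had 1 match, FN1 had 2 and the other 5 genes had 0. The 3 matches nearest the stop codon of each ZEB gene are shown with 11 bases on either side and the match in capitals, on the strand of the gene in GRCh38.
ZEB1, chr10:31527622-31527650, plus strand: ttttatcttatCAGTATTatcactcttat
ZEB1, chr10:31527716-31527744, plus strand: taaatccgcttCAGTATTttattatgttt
ZEB1, chr10:31528035-31528063, plus strand: atcatcagaatCAGTGTTtgtgattgtgt
ZEB2, chr2:144389226-144389254, minus strand: aaaattttgtaCAGTGTTaaggcctaaaa
ZEB2, chr2:144389042-144389070, minus strand: ctaccatacatCAGTATTtttattattat
ZEB2, chr2:144388979-144389007, minus strand: ctacaatgcatCAGTATTatgattcctct

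The genes that give rise to these microRNAs, named here after their values were seen, had almost no counts in the mRNA libraries. MIR200CHG, the host gene of miR-200c and miR-141, had 1 count in 1 of 18 libraries, MIR200B had 1 count in 1 library, and MIR200C, MIR141, MIR200A and MIR429 had 0 counts in 18 libraries. Libraries of polyadenylated mRNA do not capture mature microRNAs, so the level of the microRNAs themselves was not measured.

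**Figure D2:**
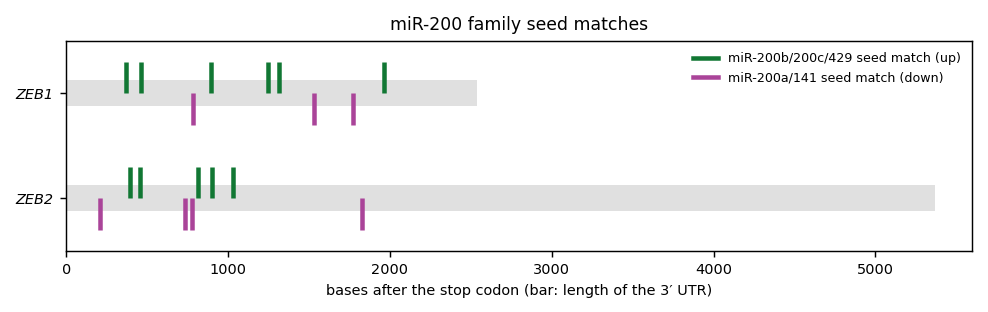
Position of miR-200 family seed matches along the 3′ UTRs of ZEB1 and ZEB2, in bases after the stop codon, with grey bars for the UTR length of 2540 and 5370 bases. Green ticks point up for the seed of miR-200b, miR-200c and miR-429, and purple ticks point down for that of miR-200a and miR-141. All 9 matches of ZEB2 lie between bases 208 and 1825, and those of ZEB1 between 369 and 1964.

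The first comparison asked whether WDR5 knockdown changed these genes within each line. The changes were small, and of the 5 tested genes only SNAI2 passed an adjusted p of 0.05 in any single line (edgeR's quasi-likelihood test with Benjamini-Hochberg adjustment over all tested genes). Averaged over the 3 lines, SNAI2 and VIM were higher in shWDR5 cells, by 1.21-fold (95% confidence interval 1.1 to 1.34) and 1.15-fold (1.06 to 1.25). For LM2 the number of genes called was 0 of 5, for BrM3 it was 1 of 5 and for BoM 0 of 5, where 6.26%, 10.7% and 16.1% of all tested genes were called. For the average over lines it was 2 of 5, against 35.4% of all tested genes, so the share of these genes called was close to that of genes in general. The 3 lines' differences come from separate libraries, but all libraries share 1 estimate of spread. In bulk RNA, a change in the number of cells in a given state and a change in RNA per cell cannot be told apart.

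SNAI2 (ENSG00000019549, on chromosome 8), which encodes the zinc finger repressor Slug, changed most clearly in BrM3. The shCtrl libraries had 36.6, 38.3 and 39.4 CPM and the shWDR5 libraries 51.2, 50.5 and 48.4 CPM. All 3 knockdown libraries lay above all 3 controls, which was true of 15.8% of tested genes in this direction. The log2 fold change was 0.39 (standard error 0.12, adjusted p = 0.0371 from edgeR). This call was lost when any one of the 6 BrM3 libraries was left out, with adjusted p-values from edgeR of 0.069 to 0.127, although the log2 fold change stayed between 0.37 and 0.42. It was also lost with upper-quartile scaling (adjusted p = 0.0593 from edgeR) and with total-count scaling (0.113).

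In BoM, SNAI2 had 41.1, 32.4 and 43.2 CPM with shCtrl and 52.7, 43.8 and 49.2 with shWDR5. These groups did not overlap either, as for 12.8% of tested genes in this direction, but the log2 fold change of 0.32 (standard error 0.12) missed the threshold (adjusted p = 0.069 from edgeR). In 4 of 9 other settings it passed, among them DESeq2 (adjusted p = 0.0272) and GC content removed (0.0297 from edgeR). Without shCtrl replicate 3 of BoM it was 0.40 and passed (adjusted p = 0.048), as did the BoM value without shCtrl replicate 1 of LM2 (0.0442 from edgeR). In LM2 the shCtrl values of 53.6, 40.3 and 45.6 CPM overlapped the shWDR5 values of 50.5, 48.1 and 52.6 CPM, with a log2 fold change of 0.12 (95% confidence interval -0.13 to 0.36). Averaged over lines, the log2 fold change was 0.28 (standard error 0.07, adjusted p = 0.00387 from edgeR), and it kept an adjusted p under 0.05 in each of the 18 fits without a library and in all 8 other settings.

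SNAI1 (ENSG00000124216, chromosome 20, 49982980 to 49988886) encodes Snail, the close relative of Slug. In LM2 it had 1.36, 1.92 and 1.82 CPM with shCtrl and 1.74, 1.56 and 1.75 with shWDR5. In BrM3 the control values were 0.633, 0.720 and 0.621 CPM and the knockdown values 0.570, 0.532 and 0.752 CPM. In BoM they were 1.04, 0.654 and 0.907 CPM with shCtrl and 0.644, 0.659 and 0.808 CPM with shWDR5. The groups overlapped in all 3 lines. In the fit with the permissive filter, which called 4.68%, 8.65% and 12.6% of genes in LM2, BrM3 and BoM, SNAI1 was not called, and its averaged log2 fold change was -0.10 (95% confidence interval -0.37 to 0.17, adjusted p = 0.603 from edgeR, where 31.9% of genes were called).

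ZEB1 (ENSG00000148516, chromosome 10, 31318495 to 31529814) had the largest standard error of the 5 tested genes in each line, 0.20 on the log2 scale. In BoM the shCtrl libraries had 90.9, 87.6 and 103 CPM and the shWDR5 libraries 157, 126 and 89.3 CPM. In BrM3 the shCtrl values were 88.2, 62.0 and 71.9 CPM and the shWDR5 values 117, 68.5 and 69.9 CPM. A single knockdown library stood above the others in BrM3, and without this shWDR5 replicate 1 the log2 fold change turned from 0.20 to -0.10. LM2 had 131, 121 and 115 CPM with shCtrl and 136, 158 and 131 CPM with shWDR5. The groups overlapped in every line, and the averaged log2 fold change of 0.27 (95% confidence interval 0.02 to 0.52) had an adjusted p of 0.0817 from edgeR. It had an adjusted p under 0.05 in 6 of 8 other settings, among them DESeq2 (0.0469), the permissive filter (0.046) and GC content removed (0.0255). Without shWDR5 replicate 3 of BoM it was 0.33 and passed (adjusted p = 0.0244 from edgeR).

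ZEB2 (ENSG00000169554, chromosome 2, 144364364 to 144521057) encodes the second ZEB repressor. BrM3 had 37.0, 34.0 and 33.1 CPM with shCtrl and 44.9, 41.8 and 38.6 CPM with shWDR5, with no overlap between groups, as for 15.8% of tested genes in this direction. The log2 fold change there was 0.27 (standard error 0.15, adjusted p = 0.284 from edgeR). In LM2 the values were 32.4, 29.6 and 30.7 CPM against 35.4, 33.4 and 30.3 CPM. In BoM they were 17.9, 13.6 and 16.9 CPM against 25.3, 19.4 and 14.7 CPM, and both of these lines' groups overlapped. The averaged log2 fold change of 0.22 (95% confidence interval 0.04 to 0.40) missed the threshold with an adjusted p of 0.0527 from edgeR. In 6 of 8 other settings it passed, among them DESeq2 (adjusted p = 0.0244), the permissive filter (0.0272) and GC content removed (0.0245). It also passed without shWDR5 replicate 3 of LM2 (0.044), shCtrl replicate 1 of BoM (0.0341) or shWDR5 replicate 3 of BoM (0.0061), all adjusted p-values from edgeR. In BoM alone, ZEB2 had a log2 fold change of 0.30, which became 0.47 (adjusted p = 0.0284 from edgeR) without shWDR5 replicate 3.

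VIM (ENSG00000026025, chromosome 10, 17228241 to 17237593) was among the most abundant mRNAs of all groups. LM2 had 1701, 1495 and 1518 CPM with shCtrl and 1813, 1821 and 2041 CPM with shWDR5, with no overlap, as for 10.7% of tested genes in this direction. The log2 fold change in LM2 was 0.27 (standard error 0.10, adjusted p = 0.132 from edgeR). In BrM3 the values were 1713, 1582 and 1739 CPM against 1735, 1996 and 1971 CPM, and in BoM 1650, 1777 and 2019 CPM against 1783, 2070 and 2231 CPM, with overlap in both. Averaged over lines, VIM rose by 0.20 on the log2 scale (standard error 0.06, adjusted p = 0.0119 from edgeR). This call held in the 18 fits without a library but was lost with upper-quartile scaling (log2 fold change 0.14, adjusted p = 0.068 from edgeR) and total-count scaling (0.11, adjusted p = 0.112). The shCtrl libraries had TMM factors of 0.994 to 1.05 and the shWDR5 libraries 0.935 to 1.007, so total-count scaling lowered the median of all tested genes by 0.09 in the averaged comparison.

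FN1 (ENSG00000115414, chromosome 2, 215360440 to 215436073) showed no call in any line. LM2 had 968, 1206 and 1003 CPM with shCtrl and 1210, 1302 and 1199 CPM with shWDR5. BrM3 had 359, 349 and 345 CPM against 358, 412 and 396 CPM. BoM had 174, 137 and 135 CPM against 184, 138 and 105 CPM. The groups overlapped in all 3 lines. The log2 fold changes were 0.22, 0.15 and -0.07, and their average was 0.10 (95% confidence interval -0.09 to 0.29, adjusted p = 0.392 from edgeR). CDH2 (ENSG00000170558, chromosome 18, 27932879 to 28177946) had 0.340, 0.407 and 0.334 CPM with shCtrl in LM2 and 0.497, 0.576 and 0.225 CPM with shWDR5. BrM3 had 0.245, 0.180 and 0.129 CPM against 0.114, 0.233 and 0.232 CPM, and BoM had 0.837, 0.471 and 0.252 CPM against 0.886, 0.814 and 0.693 CPM, again with overlap. CDH2 was called in none of the lines, and its averaged log2 fold change in the permissive fit was 0.39 with a wide 95% confidence interval of -0.08 to 0.86 (adjusted p = 0.202 from edgeR).

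**Figure D3:**
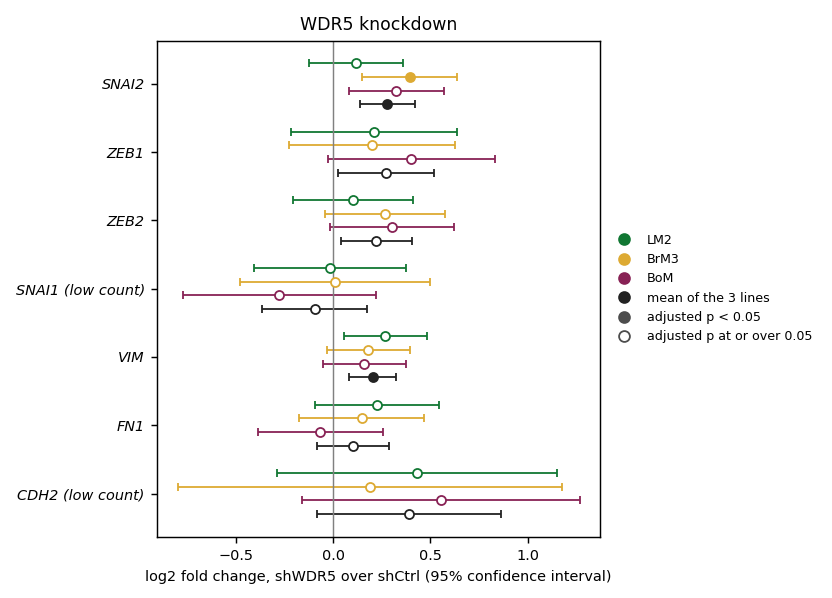
Log2 fold change of shWDR5 over shCtrl with its 95% confidence interval for 7 genes in LM2, BrM3, BoM and averaged over the 3 lines. Filled points have an adjusted p under 0.05 from edgeR. The filled points are SNAI2 in BrM3 and the averages of SNAI2 and VIM, and the intervals of SNAI1 and CDH2 come from the fit with the permissive filter.

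The log2 fold change was above 0 in all 3 lines for 4 of the 5 tested genes, which held for 35% of all tested genes without any test. Whether the response differed between lines was tested directly as the difference of 2 log2 fold changes. None of the 5 genes passed in any of the 3 pairs of lines, with adjusted p-values of 0.999 or 1 from edgeR. Over all tested genes, 0.00828% were called for BrM3 against LM2, 0% for BoM against LM2 and 0.00828% for BoM against BrM3. An unadjusted p under 0.05 from edgeR was found for 352, 625 and 349 genes, or 2.91%, 5.17% and 2.89%. For BrM3 against LM2 and BoM against BrM3 this is below the share of 0.05 expected if no gene differed. These tests may thus be conservative and miss differences. DESeq2 called 18, 40 and 4 genes in these comparisons, and 0 of the 5. For SNAI2 the response in BrM3 exceeded that in LM2 by 0.28 (95% confidence interval -0.07 to 0.62). For FN1 the response in BoM was below that in LM2 by a difference of -0.29 (95% confidence interval -0.75 to 0.17). SNAI1 and CDH2 were not called either, in the permissive fit with 0%, 0% and 0.00543% of genes called. Each pair of these comparisons shares the libraries of 1 line.

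The second comparison set the shCtrl cells of the 3 lines against each other. FN1 was highest in LM2, intermediate in BrM3 and lowest in BoM, ZEB2 was lower in BoM than in both other lines, and ZEB1 was lower in BrM3 than in LM2. Of the 5 tested genes, 3 were called for BrM3 against LM2, 2 for BoM against LM2, and 2 for BoM against BrM3, where 47.6%, 51.8% and 37.6% of all tested genes were called. All 7 calls were for lower expression in the line named first, where 23.4%, 25.8% and 19.8% of all tested genes were called lower. FN1 was among them in each comparison and ZEB2 in both comparisons with BoM, so the 7 calls are not 7 genes. Each pair of these comparisons shares 1 line's control libraries.

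FN1 had the largest difference among the 7 genes compared. The control means were 1059 ± 129 CPM in LM2, 351 ± 7.20 in BrM3 and 149 ± 22.1 in BoM (SD, n = 3). No 2 lines overlapped, as for 28.6% of tested genes lower in BrM3 than in LM2, 26.9% lower in BoM than in LM2 and 27.3% lower in BoM than in BrM3. Expression in LM2 was 3.01-fold that in BrM3 and 7.12-fold that in BoM, with log2 differences of -1.59 (standard error 0.16, adjusted p = 2.28e-07 from edgeR) and -2.83 (standard error 0.16, adjusted p = 3.18e-10). BoM lay below BrM3 by a log2 difference of -1.24 (adjusted p = 8.8e-06 from edgeR). The shWDR5 libraries, which enter these tests only through the shared estimate of spread, had the same order, with means of 1237, 389 and 142 CPM.

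ZEB2 had control means of 30.9 ± 1.40 CPM in LM2, 34.7 ± 2.04 in BrM3 and 16.1 ± 2.25 in BoM (SD, n = 3). The values of BoM lay below all those of both other lines, with log2 differences of -0.94 to LM2 (adjusted p = 5.75e-05 from edgeR) and -1.11 to BrM3 (adjusted p = 2.22e-05). The same lack of overlap held for 26.9% of tested genes lower in BoM than in LM2 and 27.3% lower in BoM than in BrM3. All BrM3 values lay above those of LM2, as for 30.2% of tested genes in this direction, with a log2 difference of 0.17 that was not called (95% confidence interval -0.14 to 0.48). In the shWDR5 libraries the means were 33.1, 41.8 and 19.8 CPM. ZEB1 had control means of 123 ± 8.40 CPM in LM2, 74.0 ± 13.2 in BrM3 and 93.9 ± 8.25 in BoM. BrM3 was below LM2 by a log2 difference of -0.73 (standard error 0.20, adjusted p = 0.00721 from edgeR), with no overlap, as for 28.6% of tested genes in this direction. BoM did not overlap LM2 either, as for 26.9% of tested genes in this direction. The log2 difference of -0.38 between BoM and LM2 was not called (adjusted p = 0.123 from edgeR). It was called in 3 of 7 other settings, without a filter (0.0119), on the libraries of the comparison alone (0.0146) and with GC content removed (0.0109). BoM differed from BrM3 by 0.34 (adjusted p = 0.198 from edgeR). The lowest control mean of ZEB1 was thus in BrM3 and that of ZEB2 in BoM, although for ZEB1 the values of BrM3 and BoM overlapped.

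SNAI1, at its low level, was highest in LM2, with a control mean of 1.70 ± 0.296 CPM against 0.658 ± 0.0537 in BrM3 and 0.866 ± 0.196 in BoM (SD, n = 3). No LM2 value overlapped those of the other lines, as for 28.6% of the 12081 tested genes lower in BrM3 and 26.9% lower in BoM. In the permissive fit the log2 differences were -1.38 for BrM3 (adjusted p = 1.91e-05 from edgeR) and -1.0 for BoM (adjusted p = 0.000529), where 41.4% and 44.7% of genes were called. SNAI2 was lower in BrM3 than in LM2 by a log2 difference of -0.29 that only just passed (adjusted p = 0.0496 from edgeR), and it missed the threshold in 5 of the 7 other settings. It also missed it without any one of 12 single libraries, with adjusted p-values up to 0.237 when shCtrl replicate 1 of LM2 was left out. BoM differed from LM2 by -0.26 (adjusted p = 0.0715 from edgeR), which passed without shCtrl replicate 2 of LM2 (0.027), shCtrl replicate 1 of BoM (0.0494) or shCtrl replicate 3 of BoM (0.0409). VIM did not pass between any pair of lines, with the largest log2 difference, 0.21, between BoM and LM2 (95% confidence interval -0.00 to 0.42). CDH2 was higher in BoM than in BrM3, by a log2 difference of 1.53 in the permissive fit (95% confidence interval 0.69 to 2.36, adjusted p = 0.0067 from edgeR, where 30.5% of genes were called), on 5 to 33 counts per library in BoM and 5 to 12 in BrM3. These groups did not overlap, as for 27.2% of the 12081 tested genes in this direction.

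**Figure D4:**
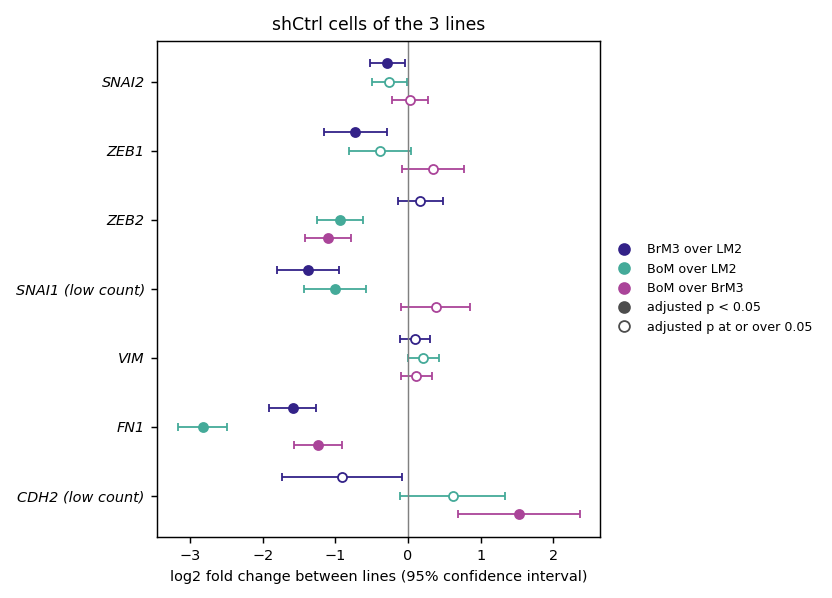
Log2 differences between the shCtrl cells of 3 lines with 95% confidence intervals for 7 genes, filled where the adjusted p from edgeR was under 0.05. FN1 reaches -2.83 between BoM and LM2, ZEB2 lies below 0 where BoM is compared with either other line, and VIM lies between 0.10 and 0.21.

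The wider EMT programme was described with lists of genes that act with, upstream or downstream of these factors. In the comparison averaged over lines, which uses the same libraries as the comparisons within lines, the median log2 fold change of all tested genes was 0.003, and 15.6% of them were called higher and 19.9% lower. Of 17 other transcription factors linked to EMT, 12 were tested, 6 were higher, 1 was lower, and the median was 0.30. SOX4 rose by 0.43 (adjusted p = 0.00113 from edgeR), FOXC1 by 0.40 (0.000251) and RUNX2, the osteoblast regulator, by 0.37 (0.000221), each in the same direction in the 3 lines. KLF8, a repressor of CDH1, fell by 0.73 (adjusted p = 0.00108 from edgeR) from a low level of 0.242 to 4.58 CPM over the libraries.

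Of 36 junction and epithelial genes, which the SNAI and ZEB factors are known to repress, 20 were tested, 10 were lower and 2 were higher, with a median log2 fold change of -0.28. SPINT1, a protease inhibitor of epithelial surfaces, fell by 1.65 (adjusted p = 7.74e-07 from edgeR), and CLDN7, a tight junction claudin, fell by 1.00 (1.58e-07). JUP, which encodes the junction protein plakoglobin, fell by 1.01 (adjusted p = 0.000202 from edgeR). Its log2 fold changes in LM2, BrM3 and BoM were unequal, at -0.27, -1.09 and -1.67. EPCAM fell by 0.60 (adjusted p = 7.98e-06 from edgeR). Within single lines, LM2 had 0 genes of the list higher and 3 lower, BrM3 had 0 and 6, and BoM had 1 and 8. Of all tested genes, 4.78%, 7.87% and 10.7% were lower in these lines, and the list's medians were -0.06, -0.39 and -0.56. The 9 calls in BoM became 5 without shCtrl replicate 2 of BoM. The 2 genes that rose were the desmosome gene PKP2, by 0.24 (0.00218), and the keratin KRT18, by 0.20 (0.0373). For KRT18 the log2 fold changes in LM2, BrM3 and BoM were 0.35, 0.25 and 0.01. Several of these genes were at low levels, with SPINT1 between 0.231 and 4.27 CPM. The summed level of the 36 genes was 1100 to 1310 CPM with shCtrl and 1310 to 1340 with shWDR5 for LM2 cells. For BrM3 cells it was 1240 to 1360 and 1100 to 1370 CPM, and for BoM cells 1060 to 1270 and 947 to 1030 CPM. CDH1 itself, which had 2 to 23 counts per library, was not tested. It had 0.456, 0.601 and 0.403 CPM in the shCtrl libraries of BoM and 0.188, 0.194 and 0.231 CPM in the shWDR5 libraries. Its mean was 0.119 CPM with shCtrl and 0.123 with shWDR5 in LM2, and 0.127 and 0.0841 in BrM3 on 2 to 6 counts per library.

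Mesenchymal effector genes, the matrix, adhesion and contractile products downstream of EMT, did not move in a single direction. Of 46 genes, 37 were tested, 4 were higher and 5 lower, with a median of 0.03. The 9 calls were 11 to 20 under the other settings, which called 13.8% to 61.1% of all genes, and 5 without shCtrl replicate 2 of BoM. COL1A1, a chain of type I collagen, fell by 1.15 (adjusted p = 8e-05 from edgeR), PDGFRB, a growth factor receptor of mesenchymal cells, by 0.87 (1.06e-05) and COL6A2 by 0.55 (0.0335), while COL5A2 rose by 0.32 (0.0362) and the actin-binding TPM1 by 0.23 (0.000897). COL1A1 and PDGFRB are also in a list of 7 fibroblast markers. The summed level of that list was 39.6 to 93.6 CPM in LM2 with shCtrl and 33.7 to 53.8 with shWDR5. The BrM3 sums were 10.1 to 12.4 and 4.5 to 6.48 CPM, and the BoM sums 13.8 to 18.9 and 6.86 to 8 CPM. In the control cells, too, the list was highest in LM2. On this list COL1A1 lay between 1.77 and 87.1 CPM over the libraries, PDGFRB between 0.741 and 10.6 and COL3A1 between 0.114 and 1.13. DCN, LUM, PDGFRA and FAP, also on it, did not exceed 0.113, 0.271, 0.724 and 0.103 CPM in any library. The summed level of 5 leukocyte markers was 1.26 to 4.73 CPM over the 18 libraries, that of 5 endothelial markers 6.66 to 23.7 and that of 8 luminal and receptor markers 139 to 194. On these lists CD14 fell by 1.13 (adjusted p = 0.00385 from edgeR) and PECAM1 rose by 0.41 (0.0124), and 0 of 4 tested luminal genes were called. The part of these markers in the changes of the EMT genes was not tested.

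Upstream of the 9 genes, the TGF-beta pathway induces SNAI and ZEB transcription in many epithelial cells. Of 16 genes of this pathway, which include ligands, receptors, SMAD genes, SKI, SKIL and LTBP1, all were tested. In the averaged comparison 2 were higher and 1 was lower. The receptor gene TGFBR2 rose by 0.17 (adjusted p = 0.0169 from edgeR), with log2 fold changes of 0.30, 0.06 and 0.14 in LM2, BrM3 and BoM. SKI, a corepressor of SMAD signalling, rose by 0.20 (0.0269), and the inhibitory SMAD6 fell by 0.36 (0.0038). TGFB1 itself had log2 fold changes of -0.05, -0.11 and -0.07 in the 3 lines. Of 15 chromatin cofactors through which SNAI and ZEB proteins repress, 3 were higher and 0 lower, namely RCOR1 by 0.28 (0.00248), HDAC2 by 0.23 (0.00221) and CTBP2 by 0.22 (0.00117). Of 15 genes for kinases, ligases and other proteins that set the stability of SNAI and ZEB proteins, 13 were tested, 2 were higher and 4 lower. GSK3B, which marks Snail for degradation, rose by 0.31 (adjusted p = 0.000769 from edgeR), and USP27X, a deubiquitinase, fell by 0.60 (0.000174) from between 1.69 and 6.35 CPM. These lists concern protein regulation that RNA levels do not measure.

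**Figure D5:**
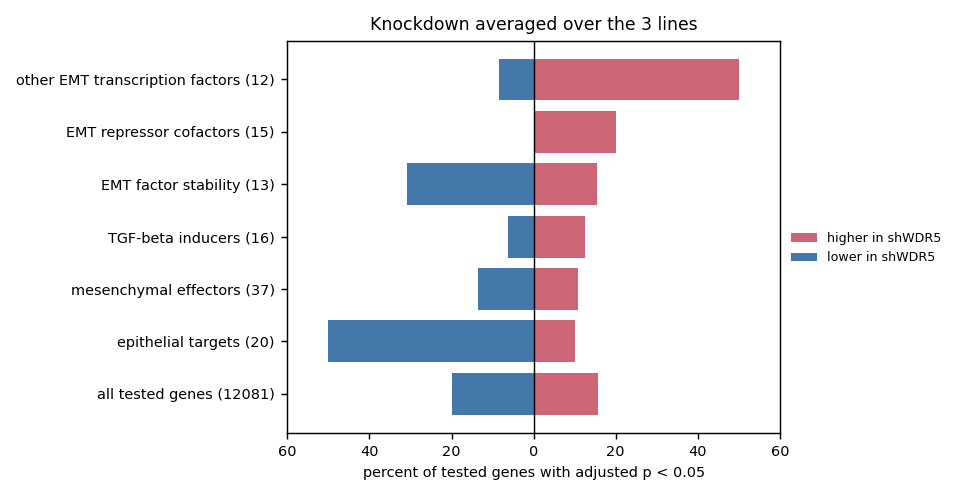
Percent of tested genes in each list that were higher (red, right) or lower (blue, left) in shWDR5 cells at an adjusted p under 0.05 in the comparison averaged over lines, with the number of tested genes in brackets and all 12081 tested genes as the lowest bar. Epithelial targets were lower for 10 of 20 genes, and other EMT transcription factors were higher for 6 of 12.

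Between the shCtrl cells of the lines, more of the effector genes were called than after knockdown, as was so for all tested genes. Of the 37 tested, 10 were higher and 19 lower in BrM3 than in LM2, 6 were higher and 22 lower in BoM than in LM2, and 6 were higher and 15 lower in BoM than in BrM3. Of all tested genes, 24.2% were higher and 23.4% lower in the first comparison, 25.9% and 25.8% in the second, and 17.8% and 19.8% in the third. The medians were -0.34, -0.73 and -0.30, against 0.009, -0.012 and -0.002 for all tested genes. SPARC, a collagen-binding matrix protein, was lower in BoM than in LM2 by a log2 difference of -6.85 (adjusted p = 5.16e-10 from edgeR). MMP2, a gelatinase, was lower there by -6.62 (1.86e-09), and COL1A2 was lower in BrM3 than in LM2 by -6.75 (3.5e-10). COL1A2 did not exceed 6.05 CPM and had 0 counts in 3 libraries. MMP2 did not exceed 17.2 CPM and had 0 counts in 1 library. The sizes of these 2 differences thus depend on counts near 0. In the other direction, CDH11, a cadherin of osteoblasts and mesenchymal cells, was higher in BoM than in BrM3 by 5.96 (adjusted p = 9.53e-12 from edgeR), and TPM2 was higher in BrM3 than in LM2 by 1.86 (7.69e-07). On the separate list of TGF-beta pathway genes, 3 of 16 were higher and 7 lower in BoM than in LM2. Of these, the inhibitory SMAD7 was lower by -2.26 (adjusted p = 4.58e-08 from edgeR). INHBA, an activin subunit, was higher by 1.75 (adjusted p = 1.16e-06 from edgeR). FN1 thus lay with the larger part of the effector list in being lower in BrM3 and BoM than in LM2, and VIM did not. The fibroblast marker sums also differed between these control groups, and their part in the differences was not tested.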

How the data were processed

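RNA was sequenced from 18 libraries, 3 per line and hairpin. According to the study's methods and the submitters' processing notes, the authors prepared stranded poly(A) mRNA libraries, aligned reads to hg38 with STAR 2.7.0 and deposited raw counts per gene. Base calling used CASAVA 1.8.2. The strand setting of the counting is not given in the sources used here, so reads of overlapping and antisense genes cannot be told apart. A deposited table of log2 fold changes and adjusted p-values per line, made by the authors with DESeq2, was not used.

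Groups came from the sample titles. The cell-line label BrM2 was read as the BrM3 of the methods, since the titles give BrM, and source labels that contradict the titles of most libraries were set aside.

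Genes were filtered by a Jaccard criterion over 100 thresholds between 1 and 200, which gave 145.7 and kept 12081 genes. edgeR 4.0.16 in R 4.3.3 fitted the counts of all 6 groups in 1 quasi-likelihood model with TMM scaling and 12 residual degrees of freedom. P-values were adjusted by Benjamini-Hochberg over all tested genes, and adjusted p under 0.05 was called. The study added ERCC spike-in RNA in proportion to cell number, but no spike-in rows were used here, so values are relative to the other genes. The code was also run on simulated counts with set changes and no differences between lines, and no result here rests on that run. SNAI1 and CDH2 were read from edgeR's filterByExpr set. The alternatives were DESeq2 1.42.0, upper-quartile scaling, filterByExpr, no filter, a replicate block, a fit on the libraries of a comparison alone, and each library left out. Total-count scaling and a loess correction for GC content, with and without the block, were chosen after seeing the data. Coordinates are from GENCODE v44 on GRCh38, seeds from RefSeq. Replicates came from different passages of a line, so p-values measure the spread between such libraries. The 18 replicate pairs differed beyond sampling noise, with chi-square per gene of 5.16 to 90.84. Intervals from a count of 0 use 3 counts and cover counting error only.

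The genes and lists were chosen with earlier results of these data known. From each list, the genes named were taken from up to 3 called higher and 3 called lower with the largest averaged log2 fold change, and up to 2 each way between control lines. Genes for the check of the cell label, such as CDH1 and EPCAM, were chosen with the lists.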

Additional observations from a re-analysis of the deposited data

How the results depend on the processing

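Directions were mostly stable and calls near the threshold were not. Of the log2 fold changes of the genes under alternatives other than left-out libraries, 251 kept direction and call, 30 gained a call, 9 lost one and 4 changed sign, and with 1 library left out these numbers were 597, 10, 18 and 5. In LM2, 0 of the 5 genes were called, and 2 with GC content removed and the replicate block, which called 29.2% of all genes in its fit. In BrM3 the count of 1 became 0 with upper-quartile or total-count scaling and 3 with GC content removed and the block, and it ranged from 0 to 1 with a library left out. Those 3 settings called 11.7%, 14.1% and 37.8% of all genes in their fits. In BoM the count of 0 became 1 with DESeq2, without an expression filter or with the block, and 2 with GC content removed, with or without the block, and it ranged from 0 to 1 with a library left out. The shares of all genes called were 20.4% with DESeq2, 5.66% without a filter and 26.3% with the block. They were 29.6% with GC content removed and 40.8% with GC content removed and the block. Averaged over lines, the count of 2 became 4 with DESeq2, filterByExpr, no filter, the block or GC content removed, 5 with GC content removed and the block, and 1, SNAI2 alone, with upper-quartile or total-count scaling. Of all genes in each fit, DESeq2 called 39.4%, filterByExpr 31.9%, no filter 13.8%, the block 46.9% and GC content removed 52.1%. GC content removed with the block called 61.1%, upper-quartile scaling 34.7% and total-count scaling 35.4%. With a library left out the averaged count for these genes ranged from 2 to 4, the latter without BoM shWDR5 replicate 3. Between the control cells of BoM and LM2, the count of 2 became 4 without an expression filter, 1 of them SNAI1, which is not among the 5, and 5 with GC content removed. These settings called 20.5% and 62.4% of all genes in their fits. The cause of these shifts was not tested.

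A few signs changed. The log2 fold change of ZEB1 in BrM3 ranged from -0.098, without BrM3 shWDR5 replicate 1, to 0.344 with a library left out. That of FN1 in BoM ranged from -0.297 to 0.112, the latter without BoM shWDR5 replicate 3, and was 0.069 without BoM shCtrl replicate 1 and 0.017 with GC content removed. The control difference of SNAI2 between BoM and BrM3 was -0.003 without an expression filter or with GC content removed, -0.007 with total-count scaling, and -0.013 without BoM shCtrl replicate 1, and it ranged from -0.051, without BoM shCtrl replicate 3, to 0.146 with a library left out. The mean of FN1 in BrM3 shCtrl libraries moved to 359.2 CPM with upper-quartile scaling. Among the lists in the averaged comparison, the cofactors had 3 calls, up to 13 under the alternatives and 5 without LM2 shWDR5 replicate 3 or BrM3 shWDR5 replicate 1, the TGF-beta genes 3 and from 1 to 7, the effectors 9 and from 11 to 20 and the epithelial targets 12 and from 12 to 20. Those alternatives called 13.8% to 61.1% of all genes in their fits.

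The replicate numbers were not taken as pairs, since the labels give them no shared passage or batch. Deviations of same-numbered shCtrl and shWDR5 libraries of a line correlated with a mean of 0.361. Of these 9 values, 2 were low, at 0.025 (LM2) and -0.178 (BrM3). The others ran from 0.145 (BoM) to 0.729 (LM2). Libraries of different numbers had a mean of -0.195 and at most 0.523. This is a hint from the data of some sharing, and the few TWIST counts also lay mostly in libraries numbered 3. With the block, SNAI2 in BoM (adjusted p = 0.0164 from edgeR) and the averaged ZEB1 (0.0228) and ZEB2 (0.0161) were called. In the main fit they were not, so their status depends on this choice. The block raised the genes called from 756 to 1434 in LM2, 1298 to 2277 in BrM3, 1946 to 3172 in BoM and 4280 to 5668 averaged over lines. Differences between control lines cannot be estimated with the block, and the averaged comparison has no fit on its own libraries alone, since it uses all 18.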

Other observations

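Antisense neighbours of 2 of the genes were also measured. ZEB1-AS1, transcribed from the opposite strand next to ZEB1, fell by 0.33 on the log2 scale in the comparison averaged over lines (adjusted p = 0.0114 from edgeR) and by 0.53 in BrM3 (adjusted p = 0.0468), while ZEB1 had averaged and BrM3 log2 fold changes of 0.27 and 0.20. In BrM3 the calls on the list of 2 tested antisense genes ranged from 0 to 2 with a library left out and stayed at 1 in 6 of 18 such fits. VIM-AS1 had control means of 3.86 ± 0.206 CPM in LM2, 6.13 ± 0.929 in BrM3 and 9.38 ± 0.572 in BoM (SD, n = 3). These values rose in that order without overlap, by log2 differences of 0.67 (adjusted p = 0.00502 from edgeR) between BrM3 and LM2 and 0.61 (0.0115) between BoM and BrM3, whereas VIM was not called between lines. Such separation held for 30.2% of tested genes higher in BrM3 than in LM2 and 27.2% higher in BoM than in BrM3. Without the strand setting of the counts, reads of these overlapping pairs cannot be told apart.

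The tested genes closest to each of these genes in pattern, by Pearson's r of log2 CPM over the 18 libraries, are given as a description, since the libraries share line and hairpin. For FN1 they were SYNJ2 (0.993), SLC2A12 (0.992) and VCL (0.989). For ZEB2 they were KDM5B (0.971), TNIK (0.969) and FAM129A (0.966), and for ZEB1 they were APPL1 (0.957), DNAJC13 (0.956) and CASP8AP2 (0.951). SNAI2 was closest to ZFP91 (0.929), FEM1C (0.895) and PAPSS2 (0.888), and VIM to VDAC2 (0.901), TRAPPC4 (0.898) and the pseudogene RPL14P1 (0.892), whose reads may belong to its parent gene.

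After removal of the group means, ZEB1 and ZEB2 correlated with r = 0.722 over the 18 libraries and ZEB2 and FN1 with 0.709, whereas VIM and FN1 had -0.641 and ZEB2 and VIM -0.544. The transcripts of ZEB1 and ZEB2 have a GC content of 38.9% and 39.0%, and those of FN1 and VIM 50.8% and 54.3%. The part of base composition in these correlations was not tested.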
